A study of Mus musculus and Homo sapiens
Mus musculus with 14 samples.

Results

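Gabra2, Gabra3, Gabra4, Gabra5, Gabra6, Gabrb1 and Gabrb2 encode alpha and beta subunits of the GABA-A receptor, and their transcripts were followed across the layers and amacrine cells of the mouse retina. These 7 genes were chosen by name, as 5 alpha and 2 beta subunits, and 6 of the 7 were listed in each of both retina tables, among 24460 genes in the table of layers and 18415 in the table of amacrine cells. Gabra6 was listed in neither table and has no value. Other alpha and beta subunit genes were not analysed here, so a share of a class below is a share among the named genes only.

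The data are Light-Seq libraries, in which cDNA made inside a fixed tissue section is tagged with a DNA barcode by light in chosen regions and then sequenced, with each molecule counted once by its unique molecular identifier (UMI). All retinas came from wild-type (WT) CD1 IGS mice in the third postnatal week, with no treatment. In each of 4 sections, the outer nuclear layer (ONL, the cell bodies of rods and cones), the bipolar cell layer (BCL) and the ganglion cell layer (GCL) were barcoded apart, and in each of 5 other sections a handful of cell bodies that stained for tyrosine hydroxylase (TH+, the dopaminergic amacrine cells) and a larger number of amacrine cells that did not (TH-) were barcoded. The study's methods give the 4 layer sections as cut from 1 animal and used as technical replicates, and for the amacrine cells refer to a single source animal. Every p-value and SD below therefore measures the spread between sections, which may be technical.

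GABA-A receptors are chloride channels built of 5 subunits, most often alpha, beta and a further type, and they carry fast inhibition. GABA binds between a beta and an alpha subunit, and the kind of alpha subunit sets much of the receptor's kinetics, position and drug response. In the retina, GABA is released mainly by amacrine cells and horizontal cells, and receptors of this kind sit on bipolar terminals, on other amacrine cells and on ganglion cells.

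The subunits differ at single codons that are known to decide how drugs act on them, and these windows of 27 bases are shown because they divide the alpha genes compared below into 2 kinds. The sequences are the sense strand, 5′ to 3′, of the canonical GENCODE vM39 transcripts on GRCm39, and each window lies in a coding exon. The capitals mark the codon aligned with the histidine that binds classical benzodiazepines, which is kept in Gabra2, Gabra3 and Gabra5 and replaced by arginine in Gabra4 and Gabra6.
Gabra2: gataccttctttCACaatgggaaaaag
Gabra3: gataccttcttcCACaatggtaaaaaa
Gabra4: gatactttcttcAGGaatggaaagaaa
Gabra5: gacacgttcttcCACaacggcaagaag
Gabra6: gacacttttttcCGGaatgggaaaaag

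The Gabra2 window is chr5:71171836-71171862, in exon 5 of 10, minus strand. The Gabra3 window is chrX:71544762-71544788, in exon 5 of 10, minus strand. The Gabra4 window is chr5:71798483-71798509, in exon 4 of 9, minus strand. The Gabra5 window is chr7:57138627-57138653, in exon 6 of 11, minus strand. The Gabra6 window is chr11:42208462-42208488, in exon 4 of 9, minus strand. Of the alpha genes with a value here, only Gabra4 carries the arginine codon, so its share among the alpha genes is also the share of the arginine kind.

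In the beta subunits the marked codon lies in the second transmembrane segment, which lines the pore, and decides the response to the anaesthetic etomidate. It encodes serine in Gabrb1 and asparagine in Gabrb2.
Gabrb1: atgaccaccatcAGCactcacctcagg
Gabrb2: atgaccacaatcAACacccacctccgg

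The Gabrb1 window is chr5:72279312-72279338, in exon 8 of 9, plus strand. The Gabrb2 window is chr11:42488388-42488414, in exon 9 of 10, plus strand. Over whole translated coding sequences, Gabra2, Gabra3 and Gabra5 were identical to one another at 71.4% to 75.6% of aligned positions, and Gabra4 was identical to Gabra6 at 72.6% and to the other 3 at 57.7% to 58.5%. The 2 beta proteins were identical at 80.3% of positions, and an alpha and a beta protein at 35.5% to 37.7%. The genes lie on 4 chromosomes. Gabra2, Gabra4 and Gabrb1 share chromosome 5, Gabra6 and Gabrb2 share chromosome 11, Gabra5 is on chromosome 7 and Gabra3 on chromosome X. Gabra4 and Gabrb1 point away from each other and overlap by 267 bases at their starts. Reads were assigned to exons without regard to strand, so a read from that stretch may not belong clearly to 1 of the pair. The overlap is one of gene bounds in GENCODE vM39, and how such reads were counted was not tested.

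Library totals ran from 585655 to 785013 UMIs in the GCL, 193869 to 208437 in the BCL, 310228 to 801105 in the ONL, 30317 to 87449 in TH+ and 134394 to 200344 in TH- cells. The layers carried their markers, with the summed level of 10 rod genes at 71809 ± 6706 CPM (counts per 1000000 UMIs of the library total, mean ± SD) in the ONL, 10 bipolar genes at 8343 ± 516 CPM in the BCL and 9 ganglion cell genes at 5103 ± 225 CPM in the GCL. They were not free of other cells' markers. The rod genes were at 16740 ± 3788 CPM in the BCL and 6379 ± 1654 CPM in the GCL. The BCL, where the study places bipolar and horizontal cells as well as Müller glia, also held 7992 ± 401 CPM of 8 Müller glia genes. The part of these other cells in the subunit values was not tested. The summed level of 4 dopaminergic amacrine genes was 853 ± 231 CPM in TH+ cells against 43.9 ± 28.5 CPM in TH- cells. No library was set aside.

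The alpha subunits are described first. Gabra2, whose subunit is known from the axon initial segment of principal neurons, was counted 101, 105, 84 and 71 times in the GCL of sections 1 to 4, 5, 7, 8 and 7 times in the BCL and 25, 15, 9 and 7 times in the ONL. On the CPM scale this is 134 ± 15.9 in the GCL, 33.7 ± 6.10 in the BCL and 23.8 ± 5.04 in the ONL (SD, n = 4). Every GCL library lay above every BCL and ONL library, with a lowest GCL value of 121 CPM against a highest BCL value of 40.7 CPM, while the BCL and ONL ranges overlapped. The fitted log2 difference was 2.27 ± 0.19 (SE) for GCL against ONL, with an adjusted p of 1.33e-15, and 2.15 ± 0.24 for GCL against BCL, with an adjusted p of 7.95e-11. For BCL against ONL it was 0.12, with a 95% interval from -0.55 to 0.78 and an adjusted p of 0.84. Adjusted p-values are those of edgeR's quasi-likelihood F-test over 11324 genes with Benjamini-Hochberg adjustment, and a gene is called below 0.05. In bulk libraries such as these, fewer cells of a type and less RNA per cell cannot be told apart.

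Gabra3, the X-linked alpha subunit, had 55, 28, 28 and 30 UMIs in the GCL, 3, 5, 3 and 6 in the BCL and 8, 2, 5 and 4 in the ONL. Its level was 51.6 ± 13.0 CPM in the GCL, 21.1 ± 7.01 CPM in the BCL and 9.27 ± 4.49 CPM in the ONL. The 3 ranges did not overlap, and Gabra3 ordered the layers as GCL, BCL, ONL in each section. The fitted log2 difference was 2.43 ± 0.31 for GCL against ONL (adjusted p = 1.75e-09) and 1.45 ± 0.35 for GCL against BCL (adjusted p = 0.000583). BCL against ONL did not pass, at 0.98 with an interval from -0.03 to 1.99 and an adjusted p of 0.12.

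Gabra4, the arginine kind, was counted mainly in the GCL, with 12, 10, 14 and 14 UMIs there, 1, 1, 0 and 0 in the BCL and 4, 1, 0 and 0 in the ONL. The level was 18.9 ± 4.48 CPM in the GCL, 2.49 ± 2.88 CPM in the BCL and 1.59 ± 2.36 CPM in the ONL. Against the ONL it rose by a log2 difference of 2.79 ± 0.55 (adjusted p = 1.45e-05) and against the BCL by 2.93 ± 0.75 (adjusted p = 0.00134). Section 1 held 4 of the 5 ONL UMIs, and without it these differences were 4.28 and 3.54. Gabra4 passed the filter on low counts only through the GCL, the group where it is high. In edgeR's test with no such filter, the adjusted p-values were 1.03e-06 against the ONL and 0.000511 against the BCL. With 2 UMIs in the whole BCL, the ratio of pooled levels was 7.45, with an exact counting interval from 1.96 to 63.2, so its size is loosely fixed. The BCL and ONL ranges overlapped, with 2 libraries at 0 in each layer, and the test gave an adjusted p of 0.95.

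Gabra5, known from receptors outside synapses, went the other way. It was counted 3, 2, 2 and 5 times in the BCL, 3, 1, 2 and 1 times in the GCL, and 3 times in section 1 of the ONL and 0 times in the other 3. The levels were 14.99 ± 7.01 CPM in the BCL, 2.53 ± 1.11 CPM in the GCL and 0.936 ± 1.87 CPM in the ONL. The lowest BCL library, at 9.60 CPM, lay above the highest GCL library, at 3.82 CPM, and above the highest ONL library, at 3.74 CPM. Gabra5 was higher in the BCL than in the ONL by a log2 difference of 2.96 ± 0.82 (adjusted p = 0.00276), and lower in the GCL than in the BCL, at -2.24 ± 0.70 (adjusted p = 0.00817). It passed the filter on low counts only through the BCL, the group where it is high. In edgeR's test with no such filter, the adjusted p-values were 0.00373 for BCL against ONL and 0.0188 for GCL against BCL. The pooled BCL level was 11.3 times that of the ONL, with a counting interval from 3.06 to 62.6. Both calls rest on 12 UMIs in the BCL and, against the ONL, on 3 UMIs that were all in section 1, without which the ONL was at 0 and the fitted difference, then no bound, was 5.54 (adjusted p = 0.00145). In the other direction, without section 4 the differences were 2.40 against the ONL and -1.75 for GCL against BCL, and neither passed (adjusted p = 0.057 and 0.13). Between GCL and ONL the difference was 0.71, with an interval from -1.12 to 2.55 and an adjusted p of 0.51, and it did not pass without section 1 either (adjusted p = 0.11).

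**Figure D1:**
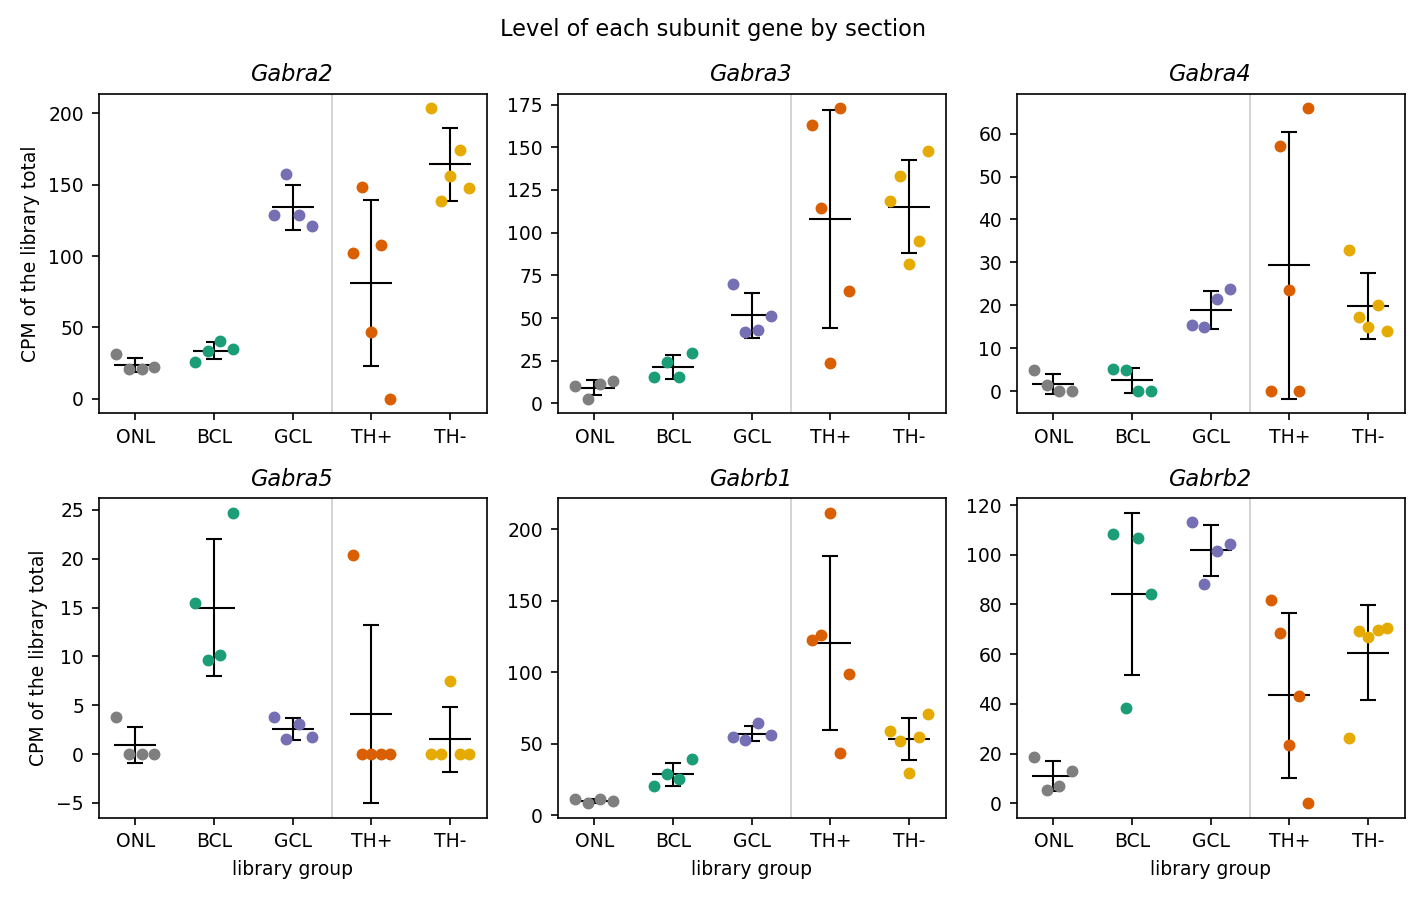
Level of each gene in CPM of the library total (vertical axis, linear, a separate scale per gene) for the ONL, BCL and GCL (4 sections each) and for TH+ and TH- amacrine cells (5 sections each). Each point is 1 library, in section order from left to right, the wide bar is the mean and the whiskers are ± 1 SD. Gabra2, Gabra3, Gabra4 and Gabrb1 are highest in the GCL among the layers, Gabra5 in the BCL, and Gabrb2 is high in both.

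The beta subunits complete the GABA binding site. Gabrb1 had 43, 35, 42 and 33 UMIs in the GCL, 4, 6, 5 and 8 in the BCL and 9, 6, 5 and 3 in the ONL. The level fell from 57.0 ± 5.26 CPM in the GCL to 28.6 ± 8.03 CPM in the BCL and 10.2 ± 1.46 CPM in the ONL, with no overlap between any of the 3 ranges. The fitted log2 difference was 2.29 ± 0.27 for GCL against ONL (adjusted p = 1.48e-10) and 1.15 ± 0.29 for GCL against BCL (adjusted p = 0.00112). BCL against ONL also passed, at 1.15 ± 0.41 with an adjusted p of 0.022. This last call was lost without section 2 (1.05, adjusted p = 0.10), without section 4 (0.90, adjusted p = 0.18) and with no filter on low counts (1.12, adjusted p = 0.067).

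Gabrb2, the beta subunit most common in adult brain, had 89, 59, 66 and 61 UMIs in the GCL, 21, 8, 21 and 17 in the BCL and 15, 4, 3 and 4 in the ONL. Its levels of 102 ± 10.3 CPM in the GCL and 84.4 ± 32.6 CPM in the BCL lay far above the 11.0 ± 6.07 CPM of the ONL, and no GCL or BCL library reached down to the ONL range. The fitted log2 difference was 2.96 ± 0.26 for GCL against ONL (adjusted p = 1.29e-14) and 2.51 ± 0.34 for BCL against ONL (adjusted p = 1.57e-08). The GCL and BCL ranges overlapped, and their difference of 0.45, with an interval from 0.01 to 0.90, had an adjusted p of 0.11. With no filter on low counts the same difference was 0.57 and just passed, with an adjusted p of 0.045.

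Counted over the 6 genes, 5 were higher in the GCL than in the ONL and none was lower, where 61.5% of all tested genes were called, 32.2% as higher in the GCL and 29.3% as higher in the ONL. Against the BCL, 4 were higher in the GCL and Gabra5 was higher in the BCL, where 36.5% of tested genes were called, 20.4% as higher in the GCL and 16.1% as higher in the BCL. Between BCL and ONL, 3 were higher in the BCL, where 36.7% were called and 18.2% were higher in the BCL. The ranges of the sections did not overlap for 5 of 6 genes in GCL against ONL, for 5 in GCL against BCL and for 4 in BCL against ONL, against 54.8%, 36.1% and 33.2% of all tested genes. The median log2 difference of the 6 was 2.36, 1.30 and 1.06 in these 3 comparisons, against -0.00, 0.02 and -0.09 over all genes tested. The comparisons share libraries, and 2 of the 6, Gabra4 and Gabra5, passed the filter on low counts through 1 layer, so these counts describe the genes and are no test of them as a group. The summed markers of ganglion and amacrine cells were also highest in the GCL. The summed level of 9 ganglion cell genes was 4806 to 5344 CPM in the GCL against 285 to 514 CPM in the BCL and 245 to 537 CPM in the ONL, and that of 8 amacrine genes was 1350 to 1523 CPM, 595 to 786 CPM and 235 to 441 CPM. By mean level all 9 ganglion cell genes and 6 of the 8 amacrine genes were highest in the GCL, the exceptions being Tfap2b, highest in the BCL at 279 CPM against 235 CPM in the GCL, and Slc6a9, highest in the ONL at 52.1 CPM against 39.8 CPM in the GCL. All genes of both lists had UMIs in all 3 layers, and their part in the subunit differences was not tested.

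**Figure D2:**
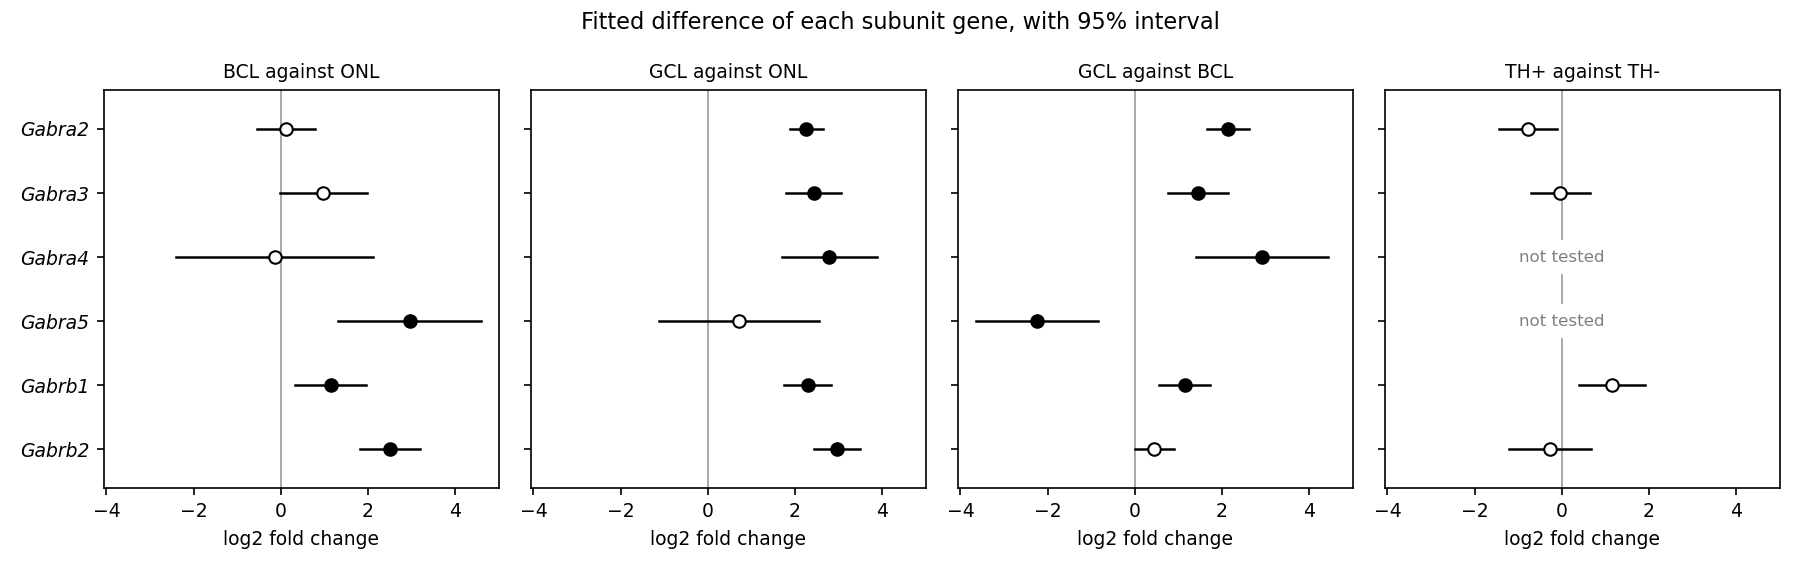
Fitted log2 fold change (horizontal axis, the first group minus the second) of each subunit gene in 4 comparisons. Points are estimates of edgeR's fit with 95% intervals as lines, filled where the adjusted p is below 0.05. In GCL against ONL, 5 filled points lie between 2.27 and 2.96, in GCL against BCL only Gabra5 lies left of 0, and no point is filled for TH+ against TH- cells, where Gabra4 and Gabra5 were not tested.

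The make-up of each class is given next, as the share of each gene among the UMIs of its class in a section, averaged over sections, and as description with no test. Among the alpha genes, Gabra2 held 64.7% ± 6.12 of UMIs in the GCL, 68.4% ± 9.96 in the ONL and 47.2% ± 10.1 in the BCL (SD, n = 4), where the BCL range of 38.9% to 61.5% overlapped with that of the GCL and lay just below that of the ONL, which began at 62.5%. The lower share in the BCL went with Gabra5, which held 20.4% ± 7.09 there against 1.22% ± 0.52 in the GCL and 1.88% ± 3.75 in the ONL. The Gabra5 share in the BCL, between 13.3% and 27.8%, overlapped neither of the other layers. Gabra3 held 24.8% ± 5.56 in the GCL, 28.7% ± 5.42 in the BCL and 25.8% ± 12.4 in the ONL, ranges that overlapped throughout. Gabra4 held 9.24% ± 2.65 in the GCL, 3.75% ± 4.38 in the BCL and 3.89% ± 4.84 in the ONL, so the arginine kind was a minority of the counted alpha transcripts in each layer. The classes are thinly counted outside the GCL. With all sections pooled the alpha genes had 559 UMIs in the GCL, 58 in the BCL and 83 in the ONL, and the 95% Wilson interval of the pooled Gabra5 share was 12.3% to 32.8% in the BCL and 0.61% to 2.56% in the GCL, which covers counting error only.

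Light-Seq primes inside transcripts, so a longer transcript gives more UMIs, and shares per kb of gene length allow for this. The length used is that of a gene's annotated exons, and the length of the transcripts present in the retina is not known. Gabrb1 is set at 13.838 kb and Gabrb2 at 6.36 kb, so the beta values per kb depend on this choice. Gabra2 spans 7.64 kb of exons and Gabra5 only 2.974 kb. Per kb, the Gabra2 share among the alpha genes was 50.9% ± 7.06 in the GCL, 54.2% ± 13.5 in the ONL and 30.0% ± 8.78 in the BCL, where Gabra3 held 34.9% ± 5.85 and Gabra5 32.2% ± 9.02. On this scale the BCL thus had 3 alpha genes at like shares, whose ranges overlapped, while Gabra5 stayed at 2.43% ± 0.97 in the GCL. The Gabra2 share in the BCL, at most 42.2%, lay below its lowest share in the GCL, 43.7%, and in the ONL, 46.9%.

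Among the 2 beta genes, Gabrb2 held 64.0% ± 2.73 of UMIs in the GCL, 72.5% ± 12.3 in the BCL and 49.3% ± 12.4 in the ONL, and Gabrb1 the rest. Per kb, Gabrb2 held 79.5% ± 1.93, 84.7% ± 8.06 and 67.1% ± 10.8 in the same order. The GCL sections lay between 61.1% and 67.4% on the UMI scale, and the ranges of the layers overlapped in every pair. Taken section by section, the ONL had the lowest Gabrb2 share each time, on the UMI scale and per kb. For sections 1 to 4 the UMI shares were 62.5%, 40.0%, 37.5% and 57.1% in the ONL. They were 67.4%, 62.8%, 61.1% and 64.9% in the GCL, and 84.0%, 57.1%, 80.8% and 68.0% in the BCL. The BCL lay above the GCL except in section 2. The ONL shares rest on 24, 10, 8 and 7 beta UMIs, and these differences were not tested.

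**Figure D3:**
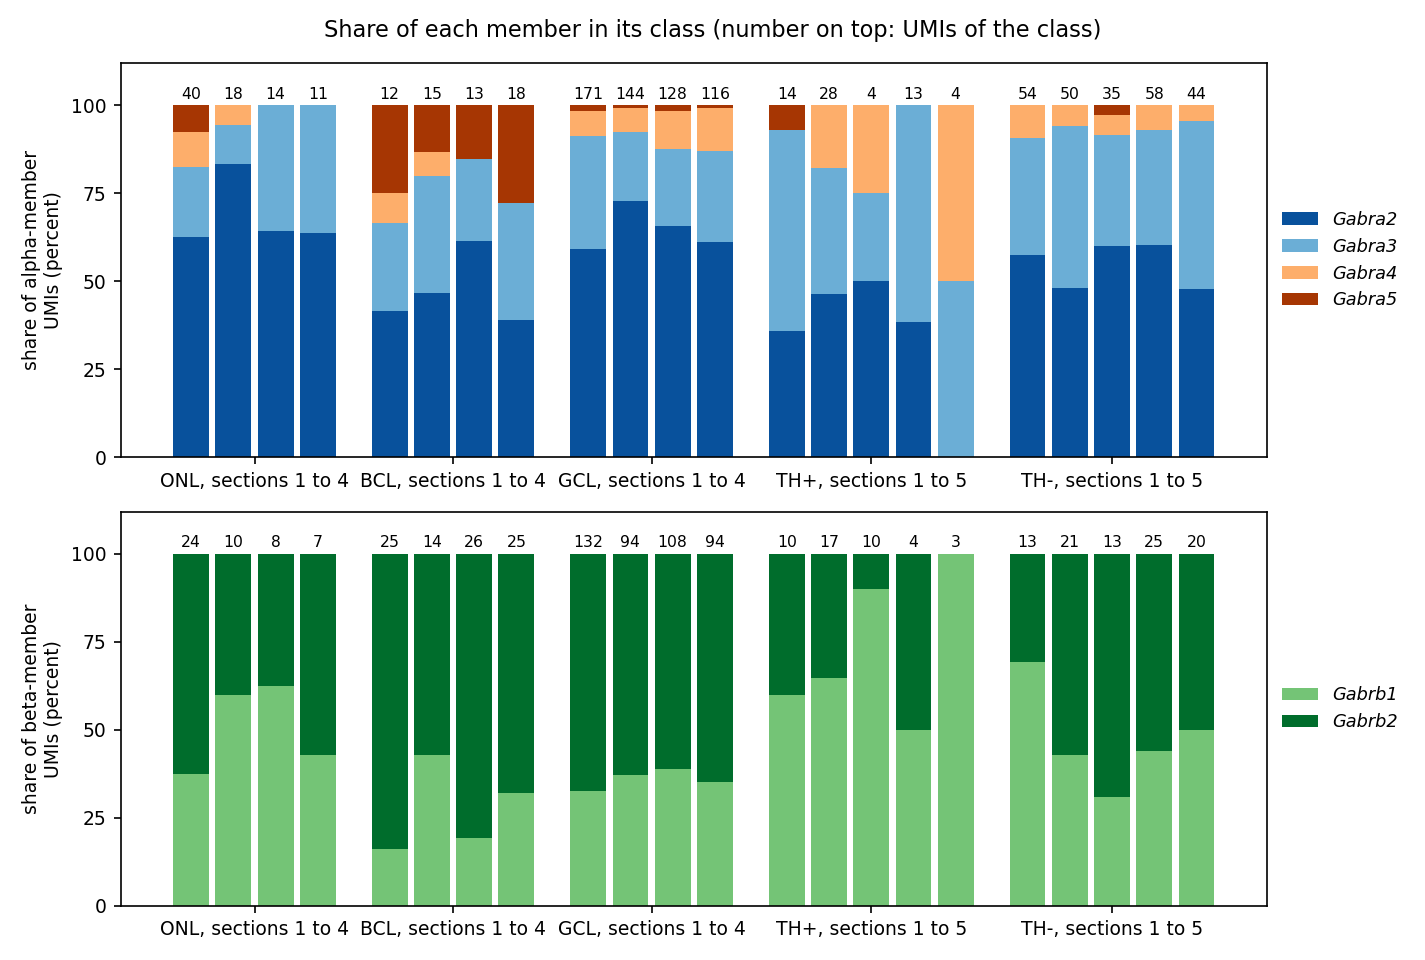
Share of each gene in the UMIs of its class (vertical axis, percent), with 1 stacked bar per section for the alpha genes (top) and the beta genes (bottom). The number over a bar is the UMIs of the class in that library. Gabra5 takes between 13.3% and 27.8% of the alpha UMIs in the BCL and at most 1.75% in the GCL, and the TH+ bars vary most and rest on as few as 4 alpha UMIs and 3 beta UMIs.

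The balance of the classes also varied. Summed over genes, the alpha level was 207 ± 11.3 CPM in the GCL, 72.2 ± 11.9 CPM in the BCL and 35.6 ± 10.5 CPM in the ONL, and the beta level 159 ± 12.4, 113 ± 30.7 and 21.2 ± 6.87 CPM. The UMIs of the 2 beta genes per UMI of the alpha genes were 0.653 to 0.844 in the GCL, 0.933 to 2.08 in the BCL and 0.556 to 0.636 in the ONL. On the UMI scale the BCL range thus lay above those of both other layers. Per kb the ratio of the summed levels was 0.517 to 0.636 in the GCL, 0.559 to 1.47 in the BCL and 0.340 to 0.437 in the ONL, so the BCL range then overlapped with that of the GCL, through section 2, and not with that of the ONL. Per kb, the summed alpha and beta levels in the BCL were 15.2 ± 3.53 and 15.3 ± 4.95 CPM per kb, against 34.7 ± 2.67 and 20.1 ± 1.73 in the GCL.

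Ranked per kb within the GCL, Gabra2 came first at 17.6 ± 2.09 CPM per kb, followed by Gabrb2 at 16.0 ± 1.62 and Gabra3 at 13.1 ± 3.31, and neighbours among these 3 overlapped. Gabrb1 at 4.12 ± 0.38 and Gabra4 at 3.11 ± 0.74 overlapped each other below them, and Gabra5 at 0.849 ± 0.37 stood apart as the lowest. In the BCL, Gabrb2 led at 13.3 ± 5.13 CPM per kb and overlapped with the next, Gabra3 at 5.38 ± 1.79. In the ONL the mean of every one of the 6 genes was at or below 3.11 CPM per kb.

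**Figure D4:**
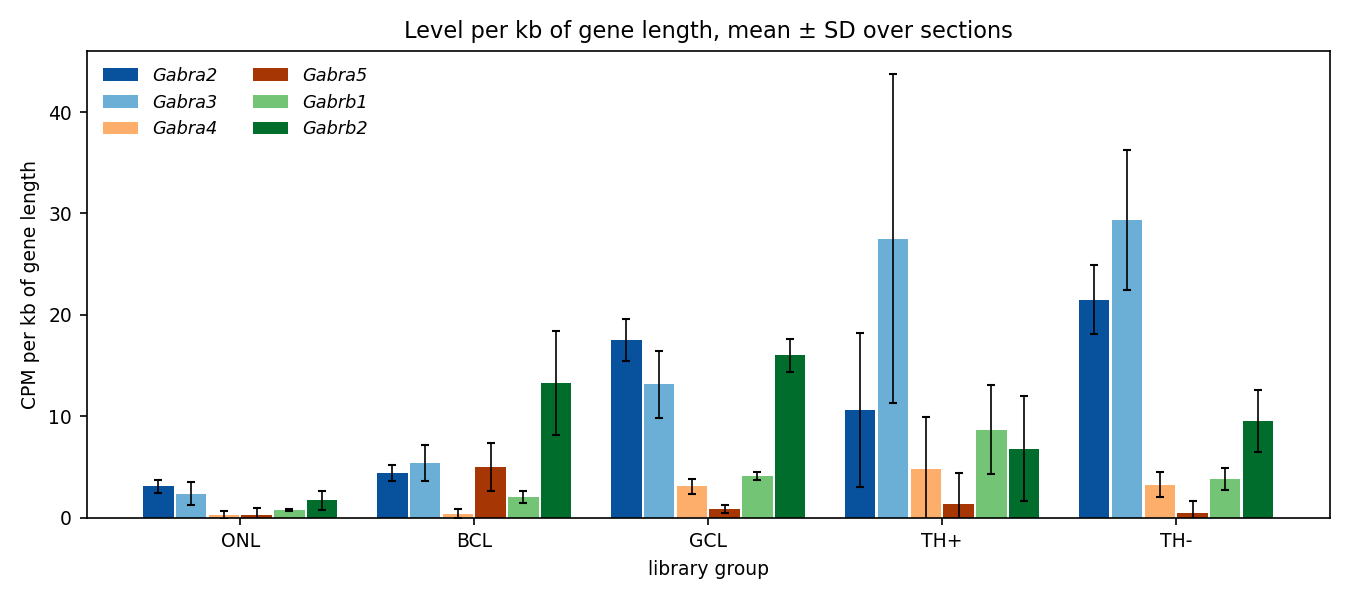
Mean level of each gene in CPM per kb of gene length (vertical axis, from 0) in the 5 library groups, with whiskers of ± 1 SD over 4 sections (ONL, BCL, GCL) or 5 (TH+, TH-). Gabra2, Gabra3 and Gabrb2 lead in the GCL, Gabrb2 leads in the BCL, and Gabra3 has the highest mean in both amacrine groups, at 27.5 and 29.4 CPM per kb.

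In the amacrine cells the question was whether the dopaminergic cells differ from their TH- neighbours. Here counts were low, since 1 UMI is worth 11.4 to 33.0 CPM in a TH+ library. Gabra2 had 5, 13, 2, 5 and 0 UMIs in TH+ sections 1 to 5 and 31, 24, 21, 35 and 21 in the TH- libraries. The level was 81.2 ± 58.0 CPM in TH+ and 164 ± 25.7 CPM in TH- cells (SD, n = 5). It was lower in TH+ cells in 4 of 5 sections, but the ranges overlapped, and the log2 difference of -0.77, with an interval from -1.45 to -0.10, had an adjusted p of 0.44. Leaving out 1 section in turn moved it between -1.26, without section 2, and -0.61, and it passed in none of these fits.

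Gabra3 had 8, 10, 1, 8 and 2 UMIs in TH+ and 18, 23, 11, 19 and 21 in TH- libraries, or 108 ± 63.7 and 115 ± 27.1 CPM. The ranges overlapped and the difference was -0.03, with an interval from -0.71 to 0.66 and an adjusted p of 0.99. Gabra4, with 0, 5, 1, 0 and 2 UMIs in TH+ and 5, 3, 2, 4 and 2 in TH- libraries, and Gabra5, with 1 UMI in all TH+ and 1 in all TH- libraries, were below the filter on low counts and were not tested. For Gabra5, 3 UMIs in a library is the limit that a count of 0 allows, which is 34.3 to 99.0 CPM in TH+ libraries, so a single TH+ library at 0 does not set its level apart from that of the BCL. The 5 TH- libraries had 1 UMI where the 4 BCL libraries, with nearly the same total, had 12.

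Gabrb1 was the member with the smallest p-value. It had 6, 11, 9, 2 and 3 UMIs in TH+ and 9, 9, 4, 11 and 10 in TH- libraries, which is 120 ± 60.8 CPM against 53.3 ± 14.9 CPM. The level was higher in TH+ cells in 4 of 5 sections, the exception being section 4, and the ranges overlapped. The log2 difference of 1.16, with an interval from 0.40 to 1.91, had an unadjusted p of 0.0034 and an adjusted p of 0.17 in edgeR's test, so it did not pass. Without section 3 it was 0.78, with an interval from -0.06 to 1.62, an unadjusted p of 0.068 and an adjusted p of 0.715 in edgeR's test, and without another section it was 1.11 to 1.34. With all sections kept and the section as a block, the Gabrb1 difference was 1.14. Its adjusted p in edgeR's test was then 0.086, which did not pass either. Gabrb2 had 4, 6, 1, 2 and 0 UMIs in TH+ and 4, 12, 9, 14 and 10 in TH- libraries, or 43.4 ± 33.1 and 60.6 ± 19.2 CPM, with a difference of -0.27, an interval from -1.22 to 0.67 and an adjusted p of 0.94.

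Of the 4 genes tested between TH+ and TH- cells, 0 were called by edgeR's quasi-likelihood test and 0 by DESeq2, where 0.83% of all 6021 tested genes were called by edgeR, 0.747% as higher in TH+ and 0.083% as higher in TH- cells. In edgeR 2 of the 4 had an unadjusted p under 0.05, Gabra2 and Gabrb1, and in DESeq2 1 of the 4. With the section as a block, 148 genes in place of 50 were called over the whole table, and still 0 members. For 0 of the 4 genes did the ranges of the 2 groups stay apart, against 2.28% of tested genes, or 0.93% with TH+ cells higher. The median log2 difference of the 4 was -0.15, against -0.05 over all genes tested. The summed level of 10 rod genes was 14694 to 37323 CPM in TH+ and 8465 to 21952 CPM in TH- libraries, that of 8 amacrine genes 2376 to 3958 and 3155 to 5230 CPM, and that of 10 bipolar genes 726 to 1704 and 853 to 3147 CPM, all ranges that overlapped. The summed level of 8 Müller glia genes was 3694 to 5134 CPM in TH+ and 5135 to 7776 CPM in TH- libraries, ranges that just stayed apart. By mean level all 10 rod genes were higher in TH+ cells, and all 8 amacrine genes, all 8 Müller glia genes and 8 of the 10 bipolar genes were higher in TH- cells. Their part in the subunit values was not tested.

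By share, Gabra2 held 34.1% ± 19.9 and Gabra3 45.9% ± 15.2 of the alpha UMIs in TH+ cells, against 54.7% ± 6.34 and 38.2% ± 7.92 in TH- cells. Gabra4, the arginine kind, held 18.6% ± 20.7 in TH+ cells, from 0% to 50% between sections on 8 UMIs in all, against 6.48% ± 1.76 in TH- cells. Gabrb1 held 72.9% ± 21.1 of the beta UMIs in TH+ against 47.4% ± 14.1 in TH- cells. All these ranges overlapped. The TH+ shares rest on 63 alpha and 44 beta UMIs in all, and the 95% Wilson intervals of the pooled shares were 55.8% to 81.8% in TH+ and 36.9% to 56.9% in TH- cells for Gabrb1, counting error only. Per kb, Gabra3 held 58.3% ± 14.9 of the alpha class in TH+ and 53.4% ± 8.56 in TH- cells, and Gabra2 23.6% ± 14.8 and 39.6% ± 6.27. The TH- cells, with 54.6 ± 6.51 CPM per kb for the alpha genes and 13.4 ± 3.05 for the beta genes, had 0.241 to 0.455 beta UMIs per alpha UMI, and the TH+ cells 0.308 to 2.5. The layers and the amacrine cells come from separate tables, so levels are set side by side and no test was made across them.

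The other genes of GABA-A signalling give the setting of these subunits, by lists fixed with earlier results of these data known. Of 10 further receptor subunit genes (gamma, delta, epsilon, theta, pi and rho), 6 were tested in the layers. In GCL against ONL, 3 were higher and 3 lower, where 61.5% of all tested genes were called. Gabrg3, a gamma subunit, had the smallest adjusted p of those higher in the GCL, at 159 ± 19.97 CPM in the GCL, 11.2 ± 6.16 in the BCL and 14.5 ± 8.21 in the ONL (log2 difference 3.23 ± 0.22 against the ONL, adjusted p = 1.64e-18, and 3.96 ± 0.33 against the BCL, adjusted p = 8.19e-15). The 3 lower in the GCL were the rho subunits, which form GABA receptors of their own in bipolar cells, and each of the 3 was also higher in the BCL than in the ONL and lower in the GCL than in the BCL. Gabrr1 had 283 ± 58.3 CPM there, 5.87 ± 3.21 in the GCL and 12.3 ± 5.25 in the ONL, a log2 difference of 4.07 ± 0.24 for BCL against ONL (adjusted p = 2.88e-20) and -5.35 ± 0.27 for GCL against BCL (adjusted p = 2.02e-23). Gabrr3 was lower in the GCL than in the ONL, at -2.09 ± 0.58 (adjusted p = 0.00152). Between BCL and ONL, 4 of the 6 were higher in the BCL and 0 lower, where 36.7% of tested genes were called, and between GCL and BCL 3 were higher and 3 lower, where 36.5% were.

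Among the amacrine cells, 5 of the 10 were tested and 2 were called, both higher in TH+ cells, where 0.747% of tested genes were. Both passed the filter on low counts through the TH+ libraries, the group where they are high, so the count is a description. Gabre, the epsilon subunit, had 7, 3, 8, 3 and 1 UMIs in TH+ and 0, 2, 0, 0 and 0 in TH- libraries, with no overlap of the ranges and a log2 difference of 4.58 ± 0.75 (adjusted p = 5.69e-05). With 2 UMIs in all TH- libraries the ratio of pooled levels was 34.5, with a counting interval from 8.48 to 303. Gabrq, the theta subunit, had 2, 7, 4, 4 and 4 UMIs in TH+ and 0, 1, 0, 2 and 2 in TH- libraries (log2 difference 3.49 ± 0.62, adjusted p = 0.00026); it is named as the only other gene called. In the annotation Gabra3 lies between Gabre and Gabrq on chromosome X, and Gabra3 itself did not pass between TH+ and TH- cells. The study also picked Gabre and Gabrq from these libraries, so their calls here are no independent evidence. It separately stained their transcripts by RNA-FISH in new sections of a littermate and reported enrichment in TH+ cells. Earlier work that found both genes in mouse TH+ cells is also cited there.

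Of 18 genes of receptor assembly and the inhibitory postsynapse, 17 were tested. In GCL against ONL 11 were higher and 1 lower, where 32.2% of all tested genes were higher in the GCL and 29.3% higher in the ONL. In GCL against BCL 7 were higher and 3 lower, where 20.4% and 16.1% of all tested genes were, and in BCL against ONL also 7 and 3, where 18.2% and 18.5% were. Between TH+ and TH- cells 0 of 17 were called by edgeR's test and 0 by DESeq2, with 4 and 1 at an unadjusted p under 0.05. Iqsec3, an exchange factor that binds gephyrin, had the smallest adjusted p of those higher in the GCL than in the ONL, at 1299 ± 62.7 against 214 ± 84.3 CPM (log2 difference 2.44 ± 0.14, adjusted p = 2.81e-21). Gabarapl1, which acts in receptor transport and autophagy, had the smallest adjusted p of those higher in the GCL than in the BCL (1.15 ± 0.15, adjusted p = 1.40e-08). Dmd, the dystrophin gene, ran opposite in all 3 comparisons, at 60.5 ± 17.3 CPM in the GCL, 196 ± 9.43 CPM in the BCL and 360 ± 21.6 CPM in the ONL, with a log2 difference of -2.72 ± 0.14 for GCL against ONL (adjusted p = 5.14e-24).

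Of 7 genes of GABA synthesis, transport and breakdown, 6 were tested and all 6 were higher in the GCL than in the ONL, 5 of 6 higher in the GCL than in the BCL, and 3 of 6 higher in the BCL than in the ONL, where 32.2%, 20.4% and 18.2% of all tested genes were. Gad1, which makes GABA, had 439 ± 51.3 CPM in the GCL and 97.0 ± 18.2 in the BCL (2.33 ± 0.20, adjusted p = 1.97e-14). Slc6a11, a GABA transporter, was higher in the BCL than in the ONL (2.31 ± 0.16, adjusted p = 8.35e-18) and lower in TH+ than in TH- cells (-0.89 ± 0.17, adjusted p = 0.00114), where 2 of 6 were lower and 0 higher, against 0.083% of tested genes lower. The Müller glia genes were also lower in TH+ cells, at 4407 ± 669 against 6475 ± 1002 CPM, and their part in this difference was not tested. Of the 2 chloride transporters that set the direction of GABA-A currents, Slc12a5 was higher in the BCL (1.26 ± 0.12, adjusted p = 1.47e-13) and in the GCL (1.18 ± 0.11, adjusted p = 8.59e-14) than in the ONL. Slc12a2 was lower in the GCL than in the ONL (-0.96 ± 0.21, adjusted p = 8.70e-05) and than in the BCL (-0.997 ± 0.26, adjusted p = 0.00139), and neither was called between TH+ and TH- cells by edgeR or DESeq2, although both had an unadjusted p under 0.05 in each tool.

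The genes most like the leading alpha and beta subunit were found by Pearson correlation of log2 CPM over the 12 layer libraries among 6998 genes of at least 20 CPM on average. For Gabra2 they were Alcam (r = 0.992), a cell adhesion gene, Atp1b1 (r = 0.988), a sodium pump subunit, and Tmem163 (r = 0.987). For Gabrb2 they were St8sia3 (r = 0.990), a sialyltransferase, Pde4a (r = 0.978), a cyclic AMP phosphodiesterase, and Marcks (r = 0.975). In the order GCL, BCL, ONL, the mean levels of Alcam were 75.1, 14.9 and 8.98 CPM and those of St8sia3 119, 109 and 14.1 CPM, the same orders as Gabra2 and Gabrb2. These 12 points are 3 layers of 4 sections, so the values mostly restate the layer means.

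In mouse 3T3 fibroblasts barcoded in 3 wells of the same series, all 7 genes had 0 UMIs, which allows up to 14.5 to 22.1 CPM per gene and well. The mean GCL levels of Gabra2, Gabra3, Gabrb1 and Gabrb2 lay above that limit.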

How the data were processed

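The authors aligned reads to mm39 with STAR 2.7.9a, assigned them to exons with featureCounts at its default settings, and removed duplicates per gene with UMI-tools 1.1.1; the deposited retina tables hold UMI counts per gene and library, with no normalization. Exon length per gene came from the authors' deposited 3T3 tables. The members and lists were chosen with earlier results of these data known.

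CPM is the count per 1000000 of the column total. edgeR 4.0.16 (R 4.3.3) was run on the deposited counts with TMM factors, filterByExpr (minimum count 3, minimum total 10) and a quasi-likelihood F-test, in 1 fit over the 12 layer libraries (11324 genes tested) and 1 over the 10 amacrine libraries (6021), without a block. The script was tested on simulated data. Alternatives were DESeq2 1.42.0, RLE factors, other filters, a section block, mitochondrial genes left out, and each section left out. The libraries of a section are 1 sample by the labels, so section numbers pair them; same-section deviations correlated at 0.012 to 0.049 in layers and 0.029 to 0.26 in amacrine cells. Named genes outside the members were, per list and comparison, the called gene with the smallest adjusted p in each direction; 2 genes so chosen are not reported here. Windows were read from GENCODE vM39 transcripts, aligned as proteins with MAFFT 7.526. Tables of human cells and of 1 deeper run of a 3T3 well were not used.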

Additional observations from a re-analysis of the deposited data

Results flagged for a closer look

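In groups of 4 or 5 sections, 5 of 40 sets of values held 1 section that stood apart from the others by Dixon's test at the 95% level. Chance gives about 1 in 20 where values do not tie, and the count is not to be read against it, since in 3 of the 5 the other sections were all at 0 and any UMI then stands apart. These 3 are Gabra5 values: 3.74 CPM in section 1 of the ONL, 20.4 CPM (1 UMI) in section 1 of TH+ and 7.44 CPM (1 UMI) in section 3 of TH- cells. Gabrb2 in section 1 of TH- cells was low, at 26.3 CPM against 67.0 to 70.5 CPM in the other 4. The summed beta level in section 2 of the BCL was low, at 67.2 CPM, where Gabrb2 had 8 UMIs.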

How the results depend on the processing

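Leaving out 1 section in turn left 1 to 3 members called in BCL against ONL, the 1 being Gabrb2 without section 4, and edgeR's default filter, under which Gabra4 and Gabra5 were not tested, left 3 in GCL against BCL. With the section as a replicate block, 3, 5, 5 and 0 members were called in BCL against ONL, GCL against ONL, GCL against BCL and TH+ against TH- cells, the counts without it, and the block changed no member's call. Over the whole amacrine table, 50 genes were called without the block and 148 with it, 29 without section 3 and 31 without section 5. Uncalled differences changed sign: without 1 section, Gabra2 ran from -0.0665 to 0.44 and Gabra4 from -0.81 to 0.74 in BCL against ONL, and Gabra3 from -0.31 to 0.16 in TH+ against TH- cells, where it was 0.00311 with DESeq2, 0.0111 with RLE factors and 0.0319 with the default filter. The cause was not tested. Per kb in place of UMIs, the Gabra2 share became 30.0% in the BCL, 50.9% in the GCL, 54.2% in the ONL and 39.6% in TH- cells, and the Gabrb2 share 79.5%, 67.1% and 69.7% in the GCL, ONL and TH- cells, by construction from gene length. Of 216 alternative values of a member's log2 difference, 201 kept their sign and call. Low counts limit the TH+ values, at 4 to 28 alpha UMIs per library, as well as those of the BCL, at 12 to 18, and of the ONL, at 11 to 40.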
